A study of Homo sapiens with 12 samples.

Results

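The genes LCE3D, SLN, NPTX1 and VGF, were followed through the course of TGFβ treatment of A549 cells, a human lung carcinoma line that is widely used as a model of the epithelial-mesenchymal transition (EMT). They were singled out by name because they were higher at the last times than at 24 h, and because none belongs to the usual EMT programme. All 4 were found in the count table of 29035 genes, 15871 of them protein-coding, and all 4 passed the filter on low counts. The values that chose them are therefore given here as a description of their time course, without a test.

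Single A549 cells were sorted into 384-well plates and sequenced by CEL-Seq2, a method that tags the 3′ end of each polyadenylated RNA with a cell barcode and a unique molecular identifier (UMI), so that 1 UMI stands for 1 captured molecule. Cells received 4 ng/mL TGFβ, with medium and TGFβ renewed every other day, and were taken at 0 h and, after the start of treatment, at 0.5 h, 12 h, 24 h, 48 h and 96 h. There were 2 libraries of 384 wells at each time. Every group was A549, and the 0 h libraries were the baseline of the course. A well was kept as a cell if its UMIs numbered 100 to 40000, its genes 2000 to 7000, and no more than 35% of the UMIs were mitochondrial. This left 1871 of 4608 wells.

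The 12 libraries held between 1264044 and 4500036 protein-coding UMIs in kept cells. Fewer wells passed at 96 h, with 54 and 64 cells, than at any other time, where 131 to 217 cells passed. Replicate 1 and replicate 2 used different sets of cell barcodes with 0 barcodes in common, so that replicate number and barcode set cannot be told apart. Nothing in the sources says that the 2 libraries of a time came from separate cultures, and p-values measure at most the spread between libraries, which may be technical. Less RNA of a gene per cell and fewer cells with the gene cannot be told apart in library sums, which is why shares of cells are given beside them.

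The 4 genes come from unrelated families. LCE3D encodes a late cornified envelope protein, a small protein cross-linked into the outer shell of terminally differentiating keratinocytes, and lies in the epidermal differentiation complex, a cluster of genes for the skin barrier. SLN encodes sarcolipin, a single-pass membrane peptide of skeletal and atrial muscle that binds and inhibits SERCA, the pump that returns calcium to the sarcoplasmic reticulum. NPTX1 encodes neuronal pentraxin 1, a secreted protein of the nervous system that takes part in clustering AMPA-type glutamate receptors at synapses. VGF encodes a granin-like precursor of neuropeptides that is packed into the secretory granules of neurons and endocrine cells and is known for its induction by nerve growth factor.

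In the GRCh38 gene models LCE3D lies on chr1:152579381-152580516, minus strand, with 2 exons. SLN lies on chr11:107707378-107719693, minus strand, also with 2 exons. NPTX1 lies on chr17:80466834-80477843, minus strand, with 5 exons, and VGF on chr7:101162509-101165569, minus strand, with 2 exons. An unnamed long non-coding RNA on the opposite strand overlaps NPTX1 and had no row in the table, and the strand setting of the counting is not given in the sources used here. Reads of the insert length, 81 bases, were compared between transcripts: 47 of the 545 such stretches of LCE3D, 8.62%, also occur in its neighbour LCE3E, whereas 0 did for SLN, NPTX1 or VGF. Counts of LCE3D and LCE3E are therefore uncertain where reads came from the shared stretches.

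The stretches before the start sites of LCE3D and VGF are shown. Promoter sequences from RefSeq were matched for only these 2 of the 4 genes. Capitals mark motifs found by a search on both strands, and each stretch is the 250 bases before the start, in the direction of the gene, from GRCh38.p14. LCE3D is chr1:152580517-152580766 and VGF is chr7:101165570-101165819, both on the minus strand.
LCE3D: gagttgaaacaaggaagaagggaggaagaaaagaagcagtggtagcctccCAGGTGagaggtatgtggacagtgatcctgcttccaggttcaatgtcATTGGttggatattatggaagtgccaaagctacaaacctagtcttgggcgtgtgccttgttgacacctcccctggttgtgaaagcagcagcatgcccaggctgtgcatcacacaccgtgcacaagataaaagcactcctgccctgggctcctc
VGF: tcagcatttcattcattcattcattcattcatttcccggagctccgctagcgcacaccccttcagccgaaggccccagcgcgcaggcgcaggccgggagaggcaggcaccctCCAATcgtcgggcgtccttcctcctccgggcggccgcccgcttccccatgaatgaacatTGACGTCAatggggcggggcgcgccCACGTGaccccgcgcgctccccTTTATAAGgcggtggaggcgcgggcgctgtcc

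The VGF stretch held the cAMP response element TGACGTCA with its first base 79 bases before the start, a letter string found in 1.65% of the 35116 promoters of this length in the table. It also held the E-box CACGTG at 54 bases, present in 6.34% of promoters, CCAAT at 138 bases, present in 32.0% on either strand, and overlapping TATA-type strings at 32 and 30 bases (TATAAA in reverse orientation, 10.7% of promoters, and TATAAG, 5.03%). The LCE3D stretch held the E2-box CAGGTG at 200 bases, present in 17.5% of promoters, and CCAAT in reverse orientation at 153 bases. Neither stretch held the AP-1 strings TGACTCA or TGAGTCA (4.20% of promoters), the SMAD string GTCTAGAC (0.182%) or CAGACA (13.6%). GC content was 51.6% for LCE3D and 66.0% for VGF, against a median of 58.0% over all promoters. These are matches of letters in these windows only.

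LCE3D was almost absent before the last time and appeared in bulk at 96 h. Its level, in protein-coding UMIs scaled by TMM to a common library size (CPM), was 0 and 0.289 in the 0 h libraries and 0 in both 0.5 h libraries. The 12 h libraries had 5.08 and 2.36 CPM, the 24 h libraries 4.12 and 4.81 CPM, and the 48 h libraries 11.3 and 8.75 CPM. The 96 h libraries had 148 and 296 CPM. Both 96 h libraries stood far above all the others. In CPM, these 2 differed by more than the 2 libraries of any other time. The log2 change was 4.44 ± 0.34 (standard error) at 96 h against 48 h, and 1.21 ± 0.48 at 48 h against 24 h. The second value was -0.83 with stricter limits on wells, 0.55 with none and 0.68 with library sums thinned to the smallest, so no direction is drawn for that step. Only 1 UMI was counted over both 0 h libraries, so the ratio of summed counts at 96 h to 0 h, 1649, has an exact 95% counting interval of 295 to 65250.

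SLN had its step 1 time earlier and then levelled. No UMI of it was counted in either 0 h library. The 2 libraries of 0.5 h had 0.300 and 0.253 CPM, those of 12 h had 4.58 and 2.62 CPM, and those of 24 h had 8.93 and 5.55 CPM. By 48 h the level was 52.7 and 41.2 CPM, and by 96 h it was 53.6 and 49.2 CPM. The 48 h libraries did not overlap the 24 h libraries, whereas the 96 h and 48 h libraries did overlap. The log2 change was 2.65 ± 0.28 at 48 h against 24 h and 0.12 ± 0.24 at 96 h against 48 h. Against a floor of 3 UMIs over the 0 h group, SLN was at least 113-fold higher at 48 h and at least 124-fold higher at 96 h.

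NPTX1 was the most abundant of the 4 at 48 and 96 h in UMIs, and its level was higher at each later time from 12 h on. It was at 0.547 and 2.89 CPM in the 0 h libraries and 0.60 and 2.03 CPM in those of 0.5 h. The 12 h libraries had 5.59 and 15.7 CPM and the 24 h libraries 23.6 and 31.4 CPM. The 48 h libraries had 230 and 268 CPM and the 96 h libraries 290 and 318 CPM. From 12 h on, each time lay above the one before it in both libraries. The log2 change was 1.35 ± 0.39 at 24 h against 12 h, 3.19 ± 0.33 at 48 h against 24 h, and 0.29 ± 0.28 at 96 h against 48 h, the last about 1 standard error from 0. Against 0 h the log2 change at 96 h was 7.46 ± 0.47. That value rested on 12 UMIs at 0 h, of which 10 were in replicate 2 and 6 in a single cell, and it was 8.98 without 0 h replicate 2 and 6.69 without 0 h replicate 1.

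VGF differed from the other 3 in that it was present from the start and dipped before it was high. It was at 9.29 and 10.7 CPM in the 0 h libraries and 11.7 and 10.6 CPM in those of 0.5 h. The 12 h libraries had 4.83 and 1.84 CPM and the 24 h libraries 5.27 and 3.70 CPM. The 48 h libraries had 25.7 and 16 CPM and the 96 h libraries 31.1 and 21.3 CPM. Both libraries of 12 h and of 24 h lay below both of 0 h, and both of 48 h and 96 h lay above. The log2 change was -1.56 ± 0.39 at 12 h against 0 h, 2.2 ± 0.36 at 48 h against 24 h, and 1.37 ± 0.34 at 96 h against 0 h. At 96 h against 48 h it was 0.28 ± 0.32, and the libraries overlapped. The value at 12 h against 0 h was -2.42 without 12 h replicate 1 and -1.01 without 12 h replicate 2.

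**Figure D1:**
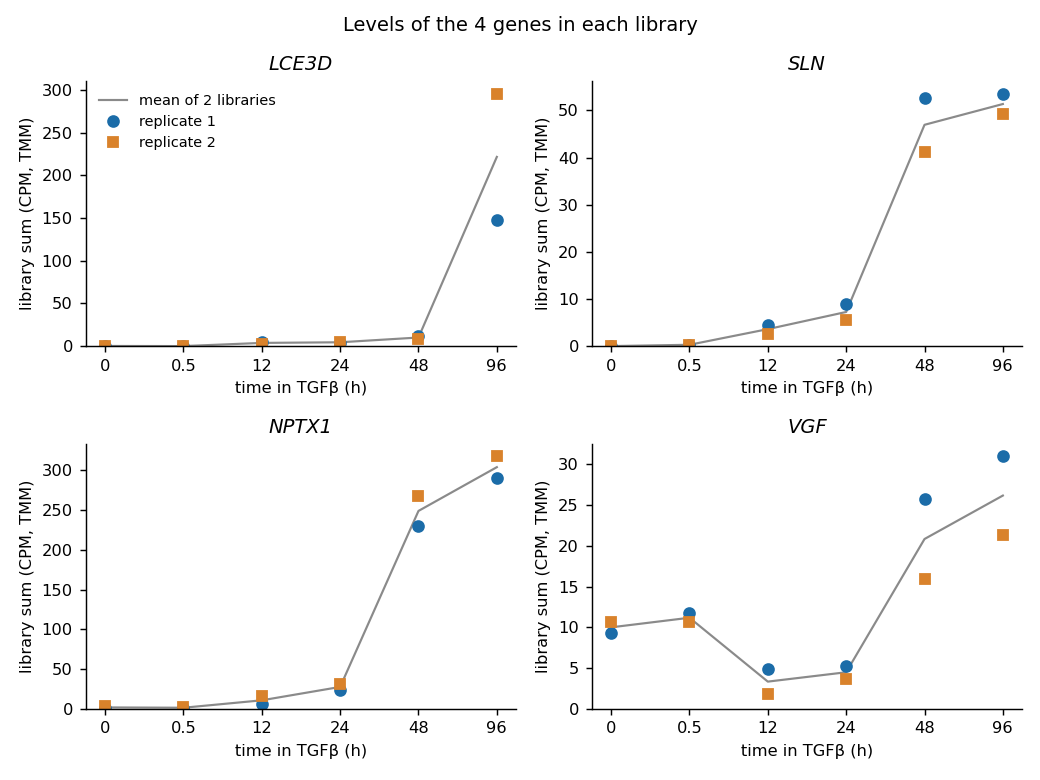
Library sums of LCE3D, SLN, NPTX1 and VGF in CPM (y axis, a separate scale for each gene) by hours of TGFβ (x axis, evenly spaced), with 1 point for each library and a line through the mean of 2. LCE3D stands at 148 and 296 CPM only at 96 h, SLN and NPTX1 reach their upper level at 48 h, and VGF dips at 12 and 24 h.

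The steps thus fell at different times. At 48 h against 24 h, both later libraries were above both earlier ones for all 4 genes, which was so for 22.9% of the 10465 genes tested. At 96 h against 48 h this held for LCE3D and NPTX1 and not for SLN and VGF, against 19.7% of all genes. At 96 h against 0 h it held for all 4, against 31.6% of all genes. Since the genes were chosen on these contrasts, nothing is read from these counts. Across the 12 libraries, SLN and NPTX1 had the most similar profiles of the 4 (Pearson r = 0.97 of log2(CPM + 1)), LCE3D followed SLN at 0.88 and NPTX1 at 0.87, and VGF stood at 0.48 to 0.51 with each of the others. The libraries share their times, and the values describe the profiles only.

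Most UMIs of LCE3D at 96 h lay in very few cells. Of the 190 and 445 UMIs of LCE3D in the 2 libraries at 96 h, 86 and 220 lay in 1 cell each, which is 45.3% and 49.4%. The top 3 cells held 85.8% and 70.6%. The median cell with any LCE3D had 1 UMI in both libraries, and 22 of 54 and 42 of 64 kept cells had at least 1. Without its highest cell, each library still held 83.6 and 153 CPM on library totals, against 8.14 and 7.24 at 48 h treated the same way. The 2 highest cells had 23051 and 34928 UMIs in all, 4712 and 5560 genes and 19.8% and 21.3% mitochondrial UMIs. At the same barcode, the 5 other libraries of that replicate number held 0 UMIs of LCE3D. For NPTX1 the highest cell of 48 h replicate 2, with 44 UMIs, shared its barcode with wells of the 5 other libraries that held 35 UMIs of NPTX1 in all.

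UMIs of SLN, NPTX1 and VGF were spread more evenly over the cells that had them, although SLN, with 20 and 27 cells, and VGF, with 22 in each library, were in no more cells than LCE3D. At 96 h the highest cell held 11.6% and 20.3% of the UMIs of SLN, 10.2% and 10.9% of those of NPTX1, and 12.5% in both libraries of those of VGF. The highest NPTX1 cells had 38 and 52 UMIs, and 12 and 18 cells had 10 or more. For VGF no kept cell at 96 h had over 5 UMIs. LCE3D was the only 1 of the 4 whose 3 highest cells held most of the gene's UMIs at 96 h.

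**Figure D2:**
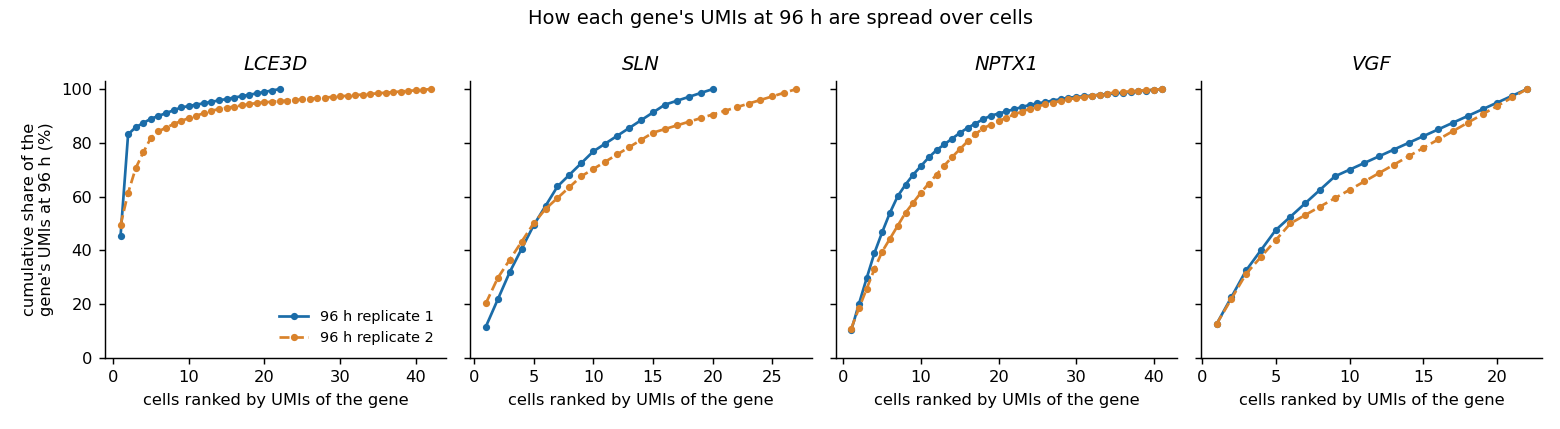
Cumulative share of each gene's UMIs at 96 h (y axis, percent) over kept cells with the gene, ranked by their UMIs of it (x axis), with a solid line for replicate 1 and a dashed line for replicate 2. For LCE3D the first cell holds 45.3% and 49.4%, whereas for NPTX1 it holds 10.2% and 10.9%.

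To compare shares of cells at equal depth, each cell was thinned at random to 1 fixed number of UMIs, which 1684 of the 1871 cells reached. LCE3D was seen in 25.5% and 49.2% of cells at 96 h (exact 95% intervals 14.3% to 39.6% and 36.4% to 62.1%), against 6.20% and 7.0% at 48 h. At 0 h it was in 0 of 175 cells, which allows a share of up to 1.71% by an approximate bound that is not the exact interval, and in 1 of 157. In wells with under 1000 genes, taken as a measure of free RNA, 6.90% and 10.6% had a UMI of LCE3D at 96 h, at median depths of 842 and 496 UMIs, against 25995 and 25668 in kept cells. Those wells were far shallower, so their shares cannot be set directly against those of cells for any gene here. The part of free RNA in the shares of cells was not tested. The intervals cover counting error only.

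SLN was in 38.0% and 25.0% of thinned cells at 48 h and in 33.3% and 30.2% at 96 h. Of the wells under 1000 genes, 1.79% to 2.54% had a UMI of SLN at those times. NPTX1 was in 51.2% and 63.0% of cells at 48 h and 58.8% and 60.3% at 96 h, whereas 10.9% to 20.3% of the wells under 1000 genes had one. VGF was in 8.0% and 15.3% of cells at 0 h and in 4.49% and 0.521% at 12 h. Its shares were 17.1% and 11.0% at 48 h, and 19.6% and 17.5% at 96 h, where 0.322% to 2.07% of the wells under 1000 genes had a UMI of it in those 2 libraries. Without thinning, VGF was in 37.6% of cells at 96 h on average, against 18.5% with it, the largest difference that thinning made for the 4 genes.

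**Figure D3:**
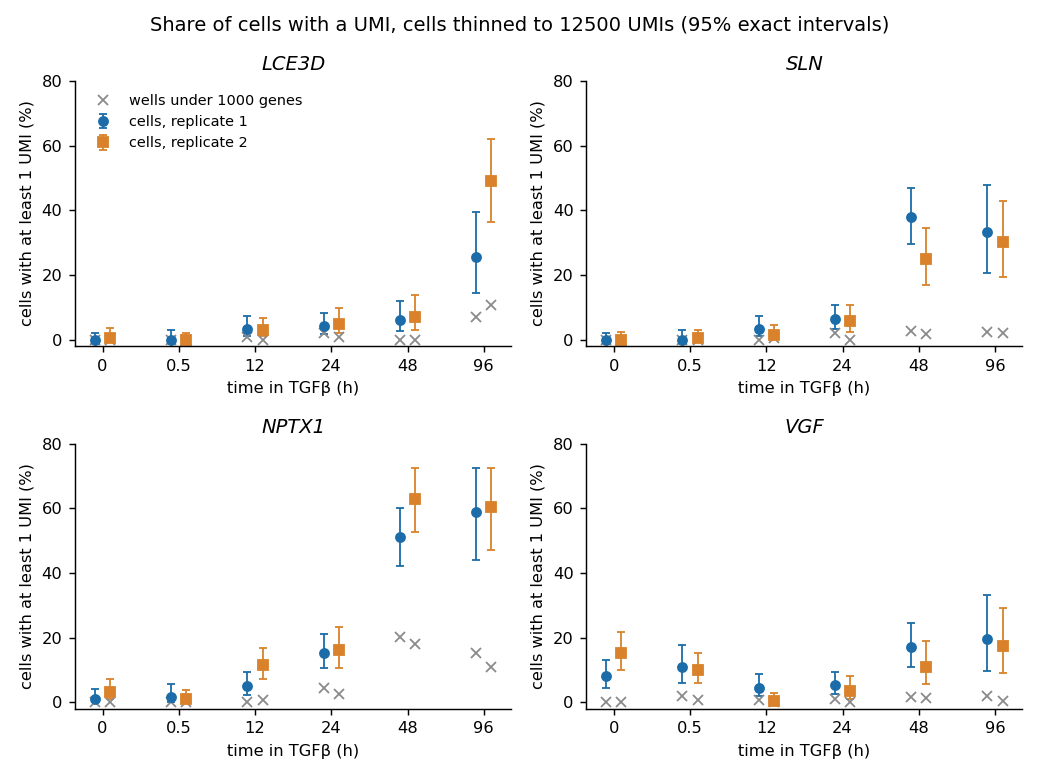
Share of cells with at least 1 UMI of each gene (y axis, percent) by time of TGFβ (x axis), after thinning to equal depth, with exact 95% intervals for each library, and grey crosses for wells under 1000 genes. NPTX1 reaches 51.2% to 63.0% from 48 h on, and LCE3D exceeds 7.0% only at 96 h.

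Most cells of 96 h held at least 1 of the genes. At 96 h, 80.4% and 90.5% of cells had a UMI of at least 1 of the 4 genes, against 9.14% and 17.2% at 0 h. The number of cells with 2 of the genes was set beside that given by the product of their shares. For SLN and NPTX1 together it was 40 cells at 48 h against 40.8 by the product, and 26 cells at 96 h against 21.5. For LCE3D and NPTX1 at 96 h it was 24 against 26.3, for LCE3D and SLN 12 against 13.7, for LCE3D and VGF 7 against 7.96, for NPTX1 and VGF 13 against 12.5, and for SLN and VGF 4 against 6.65. These sums over 229 cells at 48 h and 114 cells at 96 h are a description without a test. The 4 genes were all seen together in 3 cells, 2 at 48 h and 1 at 96 h. Even the cells with most LCE3D had few UMIs of the others, since the 2 highest at 96 h held 0 UMIs of SLN and 1 and 2 of NPTX1.

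Relatives of the 4 genes were then examined in lists from their pathways, in which genes were tested with the edgeR quasi-likelihood fit over the library sums and p-values were adjusted over all 10465 genes. At 96 h against 0 h, 12.5% of all genes were called higher and 11.1% lower at an adjusted p under 0.05.

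For the cornified envelope and the epidermal differentiation complex, 48 gene names were listed, with LOR and LORICRIN for 1 gene. Of these names, 17 were in the table, 16 had any UMI in kept cells and 5 were tested, with 1 higher and 1 lower. The higher one was LCE3E, the neighbour of LCE3D that also encodes a late cornified envelope protein. It was at 32.6 and 25.2 CPM at 96 h, against 7.34 and 3.09 at 48 h and no UMI at 0 h, which is at least 69.3-fold over a floor of 3 UMIs for the 0 h group (adjusted p = 7.27e-07 with edgeR). At 96 h against 48 h its log2 change was 2.38 (edgeR adjusted p = 0.0209), a step for which 0.803% of all genes were called higher. It was a call that was lost without 96 h replicate 1, without 96 h replicate 2, without 48 h replicate 2 and without the highest member cells, with adjusted p between 0.0634 and 0.229. LCE3E had 0.221 and 0.0854 UMIs per UMI of LCE3D at 96 h, and its highest cells there, with 17 and 8 UMIs, were cells with 72 and 220 UMIs of LCE3D. It was not bound to LCE3D in every cell, since at 24 h a cell with 10 UMIs of LCE3E had 1 of LCE3D.

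The lower one, CSTA, encodes cystatin A, a protease inhibitor of the epithelial envelope, and was at 0 and 0 CPM at 96 h against 5.74 and 2.02 at 0 h (edgeR adjusted p = 0.0187). CSTA had 68 UMIs over all kept cells, and its call did not hold in every alternative fit. CNFN, cornifelin, stood at 52.0 and 44.5 CPM at 96 h against 57.7 and 39.6 at 0 h. IVL, TGM1 and TGM3, which mark terminal differentiation, had 1 UMI each over all 1871 cells, and FLG had 5. CRCT1, on 8 UMIs over all kept cells, was at 1.55 and 1.99 CPM at 96 h against 0 at 0 h. PRR9, on 3 UMIs, was at 2.33 and 0 CPM at 96 h, and HRNR, on 2, at 0 and 1.33 CPM. Both were at 0 at 0 h. PPL was at 0.776 and 0 CPM at 96 h against 1.37 and 3.18 at 0 h (edgeR adjusted p = 0.18). The median log2 change of the 5 genes tested was -0.02, beside 0.02 over all genes. Of 10 keratinocyte markers, 5 had a UMI at 96 h and 5 at 0 h, with a summed level of 186 and 218 CPM at 96 h against 266 and 311 at 0 h, nearly all of it KRT10. KRT5 and KRT14 were at 0 and 0 CPM at 96 h against 0 and 0.289 at 0 h, and DSG3 was at 0 at both times. TP63 was at 3.11 and 1.33 CPM at 96 h and KRT6A at 0 and 4.65 CPM, against 0 for both at 0 h.

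For the partners of sarcolipin, 29 gene names of SERCA pumps, their small regulators and store calcium handling were listed. SMIM6 and C4orf3 were each also listed under a second name. Of the names, 25 were in the table and 12 tested, with 4 higher and 2 lower at 96 h against 0 h. ATP2A2, the SERCA2 pump that sarcolipin can bind, fell to 236 and 233 CPM at 96 h, against 483 and 362 at 0 h (log2 change -0.85 ± 0.19, edgeR adjusted p = 0.00155). SMIM6, which encodes another small SERCA regulator, fell to 3.11 and 1.33 CPM, against 8.20 and 10.1 (log2 change -2.06 ± 0.53, adjusted p = 0.00543). The call for SMIM6 was lost without 96 h replicate 2 (adjusted p = 0.115). PLN, the cardiac relative of sarcolipin, had 3 UMIs over all kept cells and ATP2A1, the pump of fast muscle, had 18.

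Of the 4 genes higher in that list, ITPR2 had the largest log2 change. ITPR2, an inositol trisphosphate receptor, was at 24.8 and 19.3 CPM at 96 h against 4.10 and 4.62 at 0 h (log2 change 2.32 ± 0.34, edgeR adjusted p = 1.21e-05). ORAI2, a store-operated channel subunit, and SARAF, an inhibitor of store-operated entry, rose by 1.05 ± 0.26 and 0.61 ± 0.15 on the log2 scale (adjusted p = 0.00368 and 0.0035), and both lost the call without 96 h replicate 1 (adjusted p = 0.0933 and 0.0518). C4orf3, another small pump regulator, rose by 0.47 ± 0.16 (adjusted p = 0.0303) and lost the call under 8 alternatives. Of the other genes of calcium release and entry tested, ITPR1 (log2 change 0.18), STIM1 (0.19), STIM2 (-0.59) and ORAI3 (0.45) did not pass. The list had a median log2 change of 0.32 beside 0.02 over all genes. Of 16 striated muscle markers, 3 had a UMI at 96 h and 6 at 0 h, with a summed level of 31.1 and 60.5 CPM at 96 h against 18.9 and 34.1 at 0 h, nearly all of it TNNT1, and ACTA1, TNNT2 and MYH7 were at 0 at 96 h. Of the 2 muscle markers tested, 0 passed in either direction.

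Around NPTX1, 10 genes of the pentraxins and AMPA receptor subunits were listed. Of these 6 were in the table, 4 had a UMI and 1 was tested, NPTXR, the neuronal pentraxin receptor, a membrane-bound member of the family. It was at 206.5 and 209 CPM at 96 h against 29.8 and 22.8 at 0 h (log2 change 2.98 ± 0.20, edgeR adjusted p = 3.6e-11). It also rose at 48 h, to 136 and 150 CPM, against 49.5 and 43.6 at 24 h (log2 change 1.61 ± 0.18, adjusted p = 3.22e-06). It was at 70.7 and 48.8 CPM at 12 h, so that its 24 h level was not above that of 12 h as it was for NPTX1, and NPTXR was already present at 0 h in 28.6% and 22.3% of thinned cells. At 96 h it was in 86.3% and 88.9%, and in 35.9% and 23.8% of the wells under 1000 genes. GRIA1 had 2 UMIs and GRIA3 15 over all kept cells, and GRIA2 and GRIA4 had 0. Of 12 neuron markers, 6 had a UMI at 96 h and 6 at 0 h, with a summed level of 123 and 116 CPM at 96 h against 154 and 129 at 0 h. Of the 5 neuron markers tested, 1 rose and 2 fell. SYT1, a synaptic vesicle protein, rose to 54.3 and 55.1 CPM at 96 h, against 26.0 and 26.6 at 0 h (edgeR adjusted p = 0.000842), and RBFOX3 and INA fell (adjusted p = 2.93e-05 and 0.000163). SNAP25 was at 17.1 and 19.9 CPM at 96 h against 10.9 and 8.38 at 0 h (adjusted p = 0.0759), and GAP43 and NEFM were at 0 at both times.

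Around VGF, 19 genes of the granins and of prohormone processing were listed, of which 18 were in the table and 11 tested, with 5 higher and 1 lower at 96 h against 0 h. FURIN, a protease of the secretory pathway, was at 60.6 and 57.8 CPM at 96 h against 9.02 and 8.96 at 0 h (log2 change 2.71 ± 0.22, edgeR adjusted p = 1.14e-09), and, unlike VGF, was already at 68.2 and 59.9 at 24 h. PAM and QPCT, which modify the ends of peptides, rose by 1.29 ± 0.24 and 1.10 ± 0.17 on the log2 scale (adjusted p = 0.000218 and 1.85e-05). CPE, a carboxypeptidase of secretory granules, rose to 9.32 and 5.32 CPM, against 1.64 and 1.44 (adjusted p = 0.00776), a call lost without 96 h replicate 1 (adjusted p = 0.132). PCSK5 passed narrowly (adjusted p = 0.0429) and lost the call under 6 alternatives. CPD, another carboxypeptidase, fell to 34.9 and 24.6 CPM, against 62.8 and 49.7 (log2 change -0.93 ± 0.22, adjusted p = 0.00269), and lost the call without 96 h replicate 2 (adjusted p = 0.0929).

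None of the classical granins passed the test at 96 h against 0 h. CHGB was at 3.11 and 5.32 CPM at 96 h against 2.46 and 2.60 at 0 h (edgeR adjusted p = 0.405), SCG2 had 46 UMIs over all kept cells, and CHGA had 0. The list had a median log2 change of 0.77 beside 0.02 over all genes. Of 9 neuroendocrine markers, 3 had a UMI at 96 h and 3 at 0 h. The summed level of these markers was 776 and 821 CPM at 96 h against 1349 and 1020 at 0 h, nearly all of it UCHL1. The 2 markers tested, UCHL1 and DDC, were both lower at 96 h (edgeR adjusted p = 0.0181 and 1.72e-06). DDC was at 0 at 96 h against 23.8 and 18.2 CPM at 0 h, and CHGA was at 0 at both times. The A549 epithelial markers were all detected, and 7 of 8 were lower at 96 h than at 0 h by the edgeR test. Fibroblast markers had a summed level of 99.4 and 65.1 CPM at 96 h against 19.1 and 22.5 at 0 h, nearly all of it COL6A3. Of the 2 fibroblast markers tested, COL6A3 did not pass (edgeR adjusted p = 0.105). LUM passed (adjusted p = 0.0231), at 3.88 and 1.99 CPM at 96 h against 0.273 and 0 at 0 h. The part of these marker levels in the values of the 4 genes was not tested.

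**Figure D4:**
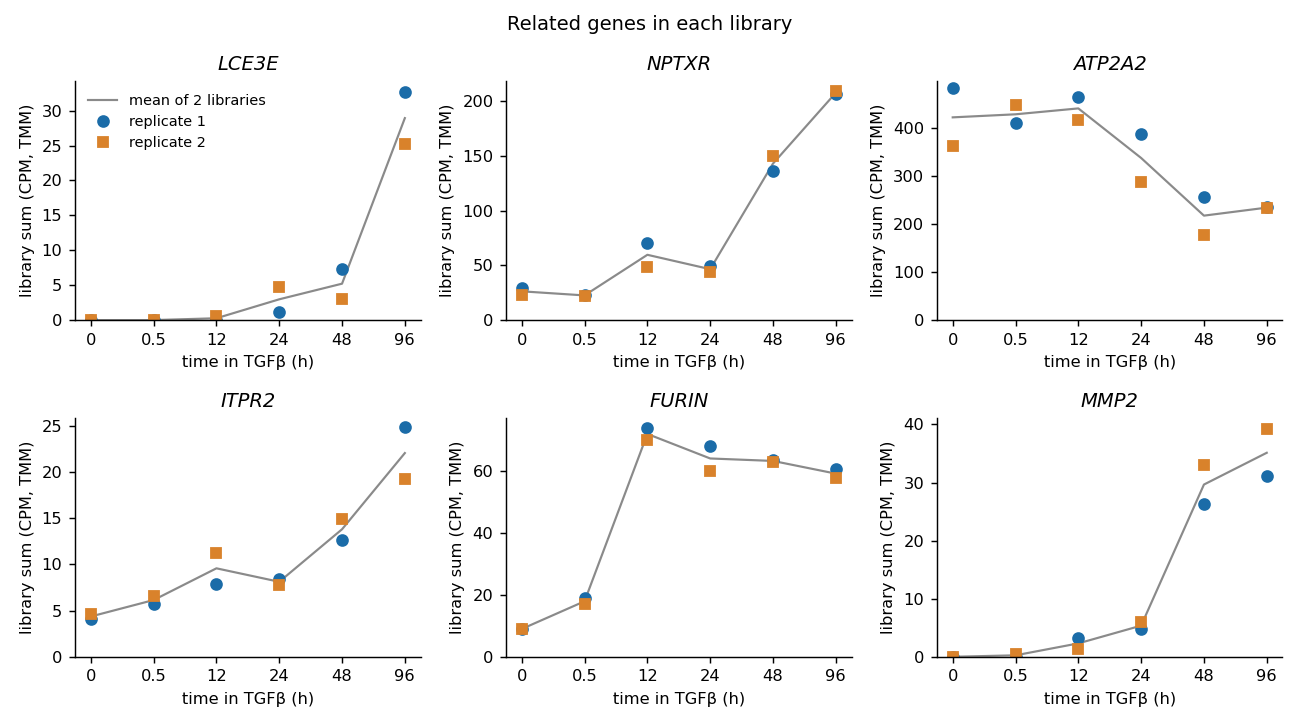
Library sums in CPM (y axis, a separate scale for each gene) by time of TGFβ (x axis) for LCE3E, NPTXR, ATP2A2, ITPR2, FURIN and MMP2, with 1 point for each library and a line through the mean of 2. LCE3E reaches 32.6 and 25.2 CPM at 96 h, NPTXR 206.5 and 209 CPM, and ATP2A2 lies at 236 and 233 CPM at 96 h against 483 and 362 at 0 h.

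The EMT panel set the 4 genes beside the response for which the cells are known, with 9 of 13 genes higher and 1 lower at 96 h against 0 h. Late steps at 48 h against 24 h were called for MMP2, COL1A1, CDH2 and TGFBI, 4 of 13 genes, where 2.61% of all genes were called higher. MMP2, a gelatinase, was at 31.1 and 39.2 CPM at 96 h and 26.4 and 33.0 at 48 h, against 4.81 and 5.92 at 24 h and no UMI at 0 h. CDH1, or E-cadherin, fell to 0 and 1.33 CPM at 96 h, against 39.1 and 32.7 at 0 h (adjusted p = 2.63e-06).

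Genes whose profile over the 12 libraries was most like that of a member were found by Pearson r of log2(CPM + 1). For SLN these were MMP2 (r = 0.99), ACKR3 (0.99), SPOCK1 (0.98), GNAS (0.98) and KCNG1 (0.98). For NPTX1 they were MMP2 (0.98), ANTXR1 (0.98), SLN (0.97), NNMT (0.97) and BBX (0.97). MMP2, a matrix protease, led both lists, but with a pseudocount of 5 in place of 1 it was at rank 2 for SLN, behind ACKR3. For LCE3D they were SLAMF9 (0.97), TUBA1A (0.96), UBA6 (0.96), SLC22A3 (0.96) and INSIG1 (0.96), of which SLAMF9 had a mean of 8.53 CPM at 96 h against 0.849 CPM at 48 h, while the log2 change over the same step was 0.64 to 1.29 for the other 4. With a pseudocount of 5 in place of 1, SLAMF9 kept rank 1 and the other 4 were at ranks 16 to 75. For VGF they were CPEB4 (0.95), NBDY (0.93), NDRG4 (0.93), ABRACL (0.92) and ACP6 (0.92), all of which were lower at 12 h and 24 h than at 0 h on average. The 12 libraries share their times, and no test was made.

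Cells with and without a UMI of SLN or NPTX1 were next compared within the same libraries of 48 h and 96 h, a contrast that the choice of the genes did not use. UMIs of thinned cells were summed per library for each class and tested in edgeR with library as a term, over the 4 libraries that had at least 15 cells in each class. With only 4 libraries, the fit borrows much of its estimate of spread from other genes. A small p-value or standard error therefore need not reflect a gene's own spread over the 4 libraries, nor an uneven spread over cells. Median depth before thinning was 15307 to 27637 UMIs in cells with SLN and 15622 to 27742 in cells without over the 4 libraries. It was 14950 to 27975 UMIs in cells with NPTX1 and 17189 to 26815 in cells without. LCE3D and VGF had 1 such library each and were not tested.

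Cells with SLN had more COL5A1 and COL5A2, which encode chains of collagen V, and less of MT2A, CCL2 and VCAN. Of 5203 genes tested, 9 were higher and 14 lower in cells with SLN, 0.442% of the genes, while 385 had an unadjusted p under 0.05. COL5A2 was at 405, 399, 732 and 548 CPM in cells with SLN, against 287, 284, 226 and 253 in cells without, in 48 h replicates 1 and 2 and 96 h replicates 1 and 2 (log2 difference 0.86 ± 0.13, adjusted p = 0.000808 with edgeR). COL5A1, its partner chain, was higher by 0.80 ± 0.14 (adjusted p = 0.00394), EPAS1, which encodes the hypoxia-inducible factor HIF-2α, by 0.73 ± 0.11 (adjusted p = 0.000808), and TIMP2, which binds MMP2, by 0.56 ± 0.09 (adjusted p = 0.00247). All 4 were higher in 4 of 4 libraries. In edgeR fits of 48 h alone and 96 h alone, COL5A2 (adjusted p = 0.0681 and 0.0583) and COL5A1 (0.236 and 0.185) did not pass. EPAS1 did not pass with 48 h alone (0.334), nor TIMP2 with 96 h alone (0.173).

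MT2A, a metallothionein, was lower in cells with SLN, at 1325, 1613, 2127 and 1964 CPM, against 1717, 2524, 3685 and 3406 in cells without (log2 difference -0.66 ± 0.07, edgeR adjusted p = 2.33e-06), and passed under all 12 alternatives that gave it a value. CCL2, a chemokine, was lower by 1.03 ± 0.16 on the log2 scale (adjusted p = 0.000808), VCAN, or versican, by 1.03 ± 0.18 (adjusted p = 0.00335), TGM2, a transglutaminase, by 0.75 ± 0.13 (adjusted p = 0.00247), and THBS1, or thrombospondin 1, by 0.61 ± 0.11 (adjusted p = 0.00344). These 5 were lower in 4 of 4 libraries. In edgeR fits of 48 h alone and 96 h alone, VCAN (adjusted p = 0.101 and 0.210) and TGM2 (0.344 and 0.145) did not pass. CCL2 and THBS1 did not pass with 96 h alone (0.185 and 0.338). CCL2 and VCAN lost the call without 48 h replicate 1 (adjusted p = 0.0517 and 0.0794), TGM2 with the robust fit (0.0735), and THBS1 without 48 h replicate 2 (0.0548), without thinning (0.0728) and without the highest member cells (0.0647). With DESeq2, 4 genes were called higher and 5 lower, and COL5A2, EPAS1, TGM2 and VCAN were not among them (adjusted p = 0.0983, 0.127, 0.598 and 0.0646).

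NPTX1 itself was among the genes higher in cells with SLN. It was at 276, 363, 465 and 449 CPM in cells with SLN, against 198, 273, 205 and 276 in cells without (log2 difference 0.64 ± 0.12, edgeR adjusted p = 0.00394). The reverse split gave SLN at 48.5, 44.4, 89.1 and 63.9 CPM in cells with NPTX1, against 55.2, 41.4, 17.0 and 29.0 in cells without, which did not pass (log2 difference 0.49 ± 0.24, adjusted p = 0.583). With 96 h alone it passed (log2 difference 1.67, adjusted p = 0.0212). The call of NPTX1 in the SLN split was lost with 48 h alone (adjusted p = 0.247) and with 96 h alone (adjusted p = 0.185).

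In cells with NPTX1, 5 of 5091 genes were higher and 11 lower, 0.314% of the genes, with 412 at an unadjusted p under 0.05. CCL2 was the clearest, at 123, 70.2, 157 and 185 CPM in cells with NPTX1, against 232, 241, 331 and 486 in cells without (log2 difference -1.27 ± 0.13, adjusted p = 4.74e-15 with edgeR), and it passed under all 14 alternatives. TGM2 was also lower, by 0.48 ± 0.08 on the log2 scale (adjusted p = 1.08e-05), in 4 of 4 libraries. IGFBP3, an insulin-like growth factor binding protein, was at 99.7, 132, 247 and 509 CPM in cells with NPTX1, against 59.4, 51.2, 251 and 152 in cells without (log2 difference 0.96 ± 0.15, adjusted p = 4.05e-06), and was higher in 3 of 4 libraries. EPAS1 was higher in 4 of 4 (0.41 ± 0.09, adjusted p = 0.00341), as were RPL26, a ribosomal protein, C15orf48 and F2RL1, a protease-activated receptor. With 1 library left out, F2RL1 passed in 0 of 4 fits, and EPAS1, RPL26 and C15orf48 in 2 of 4. EPAS1 and RPL26 lost the call without either 96 h library, and C15orf48 without 48 h replicate 2 or 96 h replicate 2. IGFBP3 lost it without 96 h replicate 2 (log2 difference 0.61, adjusted p = 0.141), and TGM2 without 48 h replicate 1 (adjusted p = 0.125). HSPB1, a small heat shock protein, was lower in 4 of 4, a call lost without 96 h replicate 2 (adjusted p = 0.0728). In edgeR fits of 48 h alone, EPAS1 (adjusted p = 0.932), RPL26 (0.904) and HSPB1 (0.780) did not pass, and they passed with 96 h alone. C15orf48 (0.444 and 0.169) and F2RL1 (0.493 and 0.241) passed with neither time alone, and TGM2 did not pass with 96 h alone (0.0700). Without thinning, EPAS1 (0.470), RPL26 (0.297) and F2RL1 (0.843) did not pass in edgeR. With DESeq2, CCL2 alone was called.

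LCE3D was called lower in cells with NPTX1 (log2 difference -1.43 ± 0.21) and in cells with SLN (-1.39 ± 0.28), but 1 cell in each 96 h library held a large part of its UMIs. The highest cells there held 46 of 102 and 80 of 197 UMIs of LCE3D after thinning, and both fell among the cells without SLN and without NPTX1. For NPTX1 the difference was -0.03 without the highest member cells (adjusted p = 0.99), the adjusted p was 0.797 with the robust edgeR fit, and the difference was 1.75 in the other direction without thinning. For SLN the call was lost without thinning (adjusted p = 0.179), and LCE3D fell below the filter on low counts without the highest member cells. No direction is drawn for LCE3D. Of the EMT panel, 0 genes passed in either split under edgeR, the nearest being COL1A1 in cells with NPTX1 (log2 difference 0.44 ± 0.12, adjusted p = 0.0602) and CDH2, or N-cadherin, in cells with SLN (-0.84 ± 0.21, adjusted p = 0.0777).

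**Figure D5:**
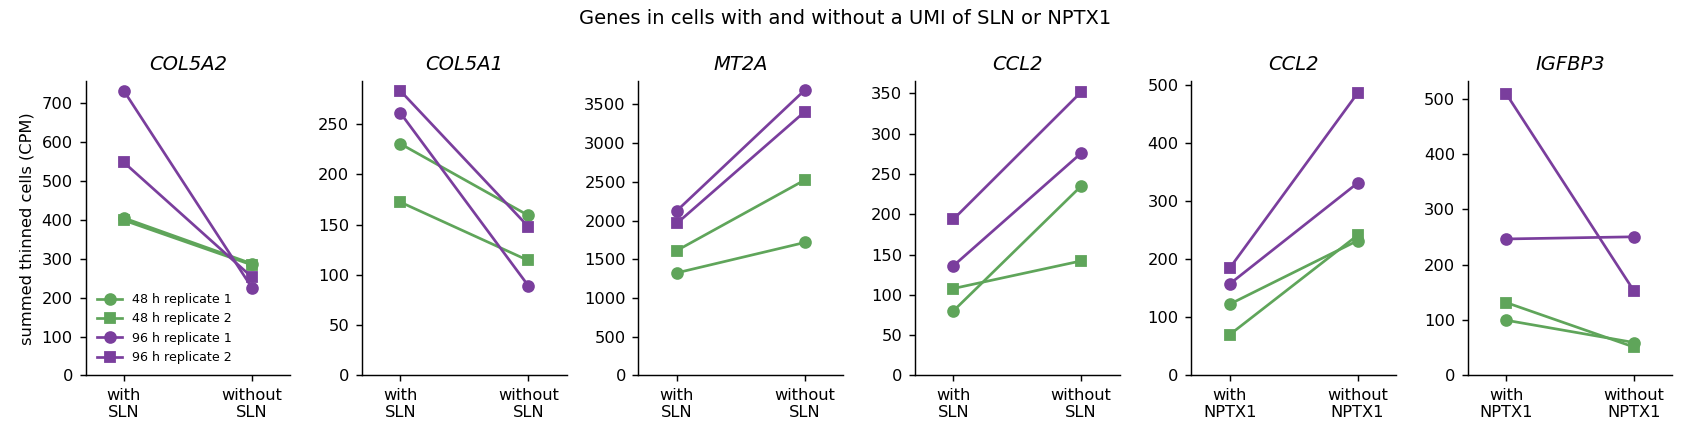
Summed thinned cells in CPM (y axis, a separate scale for each panel) for cells with a UMI of the splitting gene (left) and cells without (right), with 1 line for each of the 4 libraries of 48 h and 96 h. COL5A2 and COL5A1 are higher and MT2A and CCL2 lower in cells with SLN in every library, CCL2 is lower in cells with NPTX1 in every library, and IGFBP3 is higher in 3 of 4.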

How the data were processed

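Counts were deposited by the authors as 1 table of UMIs per gene and well, made, per the labels and the processing notes, with UMI-tools, Trim Galore 0.6.7, HISAT2 2.2.1 and featureCounts 2.0.1 on GRCh38, with UMIs of 10 nt and barcodes of 9 nt. The version of the gene annotation is not given in the sources used here. A count is 1 UMI, so that PCR copies are removed. Whole-table counts were used without change, and the well limits were those of the study's methods, which state a cell number other than the 1871 obtained here.

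Protein-coding UMIs of kept cells were summed per library and fitted in edgeR 4.0.16 (TMM, filterByExpr, robust quasi-likelihood, R 4.3.3), which tested 10465 genes with Benjamini-Hochberg adjustment over all of them at 0.05. Library sums held 1264044 to 4500036 UMIs. For shares and splits, cells were thinned to 1 depth, with Clopper-Pearson intervals that cover counting error only. No doublet caller was run. Cells with and without a gene were compared with the plain quasi-likelihood fit. A pseudocount of 1 CPM was used for profiles. DESeq2 1.42.0 served as an alternative, as did other well limits, filters, depths, a replicate block and leaving out each library, and the tests were checked on simulated counts. Named genes were the 4 members, the 5 most alike in profile, up to 4 per list with the lowest adjusted p at 96 h against 0 h, relatives of a member, the 5 genes each way with the lowest adjusted p between cells with and without SLN or NPTX1, and the EMT panel. Other genes of the lists that are named, and markers, were chosen after their values were seen. The members and lists were chosen with earlier results of these data known. Some genes that the rule names are not reported here.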

Additional observations from a re-analysis of the deposited data

Results flagged for a closer look

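Wells outside the limits, which no comparison used, also held the late genes at 96 h. At 96 h, 290 and 311 of them had under 1000 genes, and 20 and 6 had over 40000 UMIs. LCE3D was at 120 and 89.8 CPM in the 330 and 320 wells left out at 96 h, on 144 and 38 UMIs, against 0 UMIs in the wells left out at 0 h. The 144 UMIs lay in 40 wells with up to 39 in 1 well, and the 38 in 37 wells with at most 2 in 1 well. The part of free RNA in these values was not tested. SLN was at 70.6 and 61.4 CPM there, also against 0 UMIs at 0 h. NPTX1 was at 330 and 198 CPM, against 1.61 and 0 CPM at 0 h.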

How the results depend on the processing

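The limits on wells moved most values. Stricter limits (3000 genes or more, mitochondrial share up to 20%) left 6 to 58 cells per library, and under them the log2 change of LCE3D at 48 h against 24 h reversed to -0.83 and that at 96 h against 48 h was 5.67. SLN was then at 1.70 and 1.09 for the same steps, and NPTX1 at 3.71 and 0.63. Genes called at 96 h against 0 h numbered 629 of all genes, against 2477, with 0 of the cornified envelope list, 2 of the SERCA list, 2 of the granin list and 6 of the EMT panel. With no limits LCE3D at 48 h against 24 h was 0.55, and with library sums thinned to the smallest it was 0.68 and the cornified envelope list had 1 call. Without the cells with most UMIs of each member, LCE3D at 96 h against 48 h was 3.91.

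Leaving out 1 library at a time gave 3.84 to 4.84 for that step of LCE3D and 2.37 to 3.08 for SLN at 48 h against 24 h. VGF ranged from 1.78 to 2.51 at 48 h against 24 h and from -0.00685 to 0.69 at 96 h against 48 h. The calls at 96 h against 0 h ranged from 1489 to 2045 genes over all, 1 to 2 in the cornified envelope list and 3 to 5 in the SERCA list, from 14 to 26 between cells with and without SLN, and from 5 to 23 for NPTX1.

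Shares at 96 h depend on depth by construction. The mean share was 53.2% for LCE3D, 39.6% for SLN, 70.0% for NPTX1 and 37.6% for VGF without thinning, and 23.0%, 18.8%, 50.1% and 10.9% when thinned further, to a depth that 1861 cells reached. Under the stricter limits the shares were 34.8% for LCE3D, 42.3% for SLN, 63.6% for NPTX1 and 14.2% for VGF. From 2 UMIs they were 16% for LCE3D, 16.3% for SLN, 45.4% for NPTX1 and 6.30% for VGF. Each library alone gave 25.5% to 49.2% for LCE3D, 30.2% to 33.3% for SLN, 58.8% to 60.3% for NPTX1 and 17.5% to 19.6% for VGF. Cells with both SLN and NPTX1 over the product of shares were 1.14 at 48 h under the stricter limits, 1.16 from 2 UMIs, and 1.36 at 96 h from 2 UMIs, with 0.957 to 1.02 at 48 h and 1.13 to 1.3 at 96 h in single libraries.

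Between cells with and without SLN, 23 calls became 11 with 48 h alone, 2 with 96 h alone, 9 with DESeq2, 39 without the filter on low counts and 72 without thinning. Between cells with and without NPTX1, 16 calls became 7 with 48 h alone, 35 with 96 h alone, 1 with DESeq2, 27 from 2 UMIs, 25 with the robust fit, 2 when thinned further and 5 without the highest member cells. For SLN, the fits from 2 UMIs and at the lower depth were not run, since under 3 libraries held enough cells. LCE3D between cells with and without NPTX1 reversed to 1.75 without thinning. The cause of these moves was not tested.

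Replicate numbers were not taken to pair the samples, since not every pair of times had a correlation of deviations over 0.1. The correlations were 0.145 to 0.292 among 0, 12, 24 and 48 h and -0.0952 to 0.0958 for pairs with 0.5 or 96 h. With a replicate block, the log2 change of LCE3D at 96 h against 48 h was 4.35 and 2811 genes were called at 96 h against 0 h. The fits without the highest member cells and the robust fit were chosen after seeing the data.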
